A study of Mus musculus with 8 samples.

Results

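miR-22 is a microRNA (miRNA) made from 1 hairpin, and its mature arms, named mmu-miR-22-3p and mmu-miR-22-5p in the count tables, were followed here in mouse macrophages with and without lipopolysaccharide (LPS). The hairpin was chosen by the count of miR-22-3p in these same libraries, the highest of all miRNAs by mean level. Its level, its rank and the size of its arm ratio are therefore given as a description and are not tested. Both arms were taken by name, 2 of the 1907 mature miRNAs listed. The cells were bone marrow-derived macrophages of wild-type mice aged 8 to 12 weeks (strain not given in the labels). Marrow cells were differentiated over 6 days in L929 supernatant, a source of macrophage colony-stimulating factor. The control group received no LPS, and the other group received LPS, a component of the outer membrane of bacteria that activates Toll-like receptor 4, at 100 ng/ml for 3 h. Each group had 3 small RNA libraries. The labels do not say whether the 3 came from separate animals or cultures, so a p-value here reflects only how far these samples spread, and that spread may be technical.

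A miRNA hairpin is cut by Drosha and then Dicer into a short duplex, and usually 1 strand of it is kept by an Argonaute protein while the other is degraded. The kept strand finds messenger RNAs mainly by pairing through its seed, bases 2 to 8 from its 5′ end, and lowers their stability or translation. miR-22-3p is known as the kept arm of its hairpin, is abundant in heart and skeletal muscle as well as in blood cells, and is known for repressing Tet2, an enzyme of DNA demethylation.

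The sequences below show both arms with the seed in capitals, together with miR-21a-5p, the miRNA that took the first rank where miR-22-3p did not. They are RefSeq sequences of the assembly GRCm38.p6.
miR-22-3p: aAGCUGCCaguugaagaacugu
miR-22-5p: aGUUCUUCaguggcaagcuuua
miR-21a-5p: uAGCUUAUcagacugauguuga
The hairpin that carries both arms is shown next with the arms in capitals, the 5p arm first.
Mir22 hairpin: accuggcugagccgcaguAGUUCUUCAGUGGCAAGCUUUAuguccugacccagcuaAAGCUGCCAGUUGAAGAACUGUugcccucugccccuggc

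The Mir22 hairpin spans 95 bases on the plus strand of chromosome 11 (chr11:75463716-75463810). The 5p arm lies at chr11:75463734-75463755 and the 3p arm at chr11:75463772-75463793. The hairpin falls inside the span of its long noncoding host gene Mir22hg (75461539 to 75466690), and the table used gives spans only, so exon or intron was not determined. The protein-coding genes Wdr81 (75440943 to 75454808) and Tlcd2 (75468024 to 75470899) flank the host gene. The nearest other annotated hairpin on the chromosome, Mir3971, is 87619 bases away, so no annotated hairpin overlaps Mir22.

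Both arms are 22 bases long and begin with A, as do 28.0% of the 314 tested miRNAs with a sequence in the table, of which 39.5% begin with U. G and C make up 45.5% of the 3p arm and 40.9% of the 5p arm, and the median of the tested miRNAs is 50%. In the predicted fold of the hairpin (-41.9 kcal/mol) 19 bases of each arm pair with the other arm. The first 4 bases of the 5p arm pair through 3 A-U pairs and 1 G-C pair, and those of the 3p arm through 2 A-U and 2 G-C pairs.

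No other miRNA of the count tables with a sequence (1623 names) shares the seed of either arm. The seed letters of miR-22-3p also occur in miR-3966, which shares 9 bases with it but begins 1 base later, and which had 1 count in the 6 libraries together. No other stretch shared with the 3p arm was longer than 8 bases. miR-6935-3p and miR-7092-3p share bases 2 to 7 of the 5p arm, and they had 9 and 14 counts in the 6 libraries together. The longest stretch of the 5p arm found in another mature miRNA of the tables is 10 bases at its 5′ end, which also end miR-146a-3p, the minor arm of a hairpin whose main arm restrains Toll-like receptor signalling. The shared bases are in capitals below.
miR-22-5p: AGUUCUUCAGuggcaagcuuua
miR-146a-3p: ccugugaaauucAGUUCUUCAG
These bases include the whole seed of miR-22-5p but lie at the 3′ end of miR-146a-3p, outside its seed. No stretch of 11 bases of either miR-22 arm occurs in any other of the 1005 hairpins of the table, on either strand. Full-length reads of miR-22 therefore have no second exact match among these hairpins, which matters because the handling of reads with several matches is not given in the sources used here.

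The libraries held 3280688 to 4312555 miRNA counts. Levels are CPM, counts relative to a common library size, scaled by TMM factors, which were 0.96 to 1.05. A read covers a whole mature miRNA and not a piece of a longer transcript, so levels of different miRNAs were compared as read counts with no division by length. Ligation and amplification can favour some sequences, so these levels are levels of reads and not of molecules. miR-22 is not specific to macrophages, so the markers of other cells that could carry it were counted. Heart and skeletal muscle miRNAs (18 arms, among them miR-1a-3p, miR-133a-3p and miR-206-3p at 0) summed to 0 to 1 counts in control and 0 in LPS libraries. Erythroid miRNAs (7 arms) summed to 0 to 2 and 2 to 5 counts, with both arms of miR-486a and miR-486b at 0. Stromal miRNAs (11 arms) summed to 1 to 9 and 6 to 9 counts, endothelial ones (4 arms) to 0 to 1 and 0 counts, and liver and neural ones (2 and 4 arms) to 0. How reads with several matches were handled is not given in the sources used here. A value of 0 for an arm made from more than 1 hairpin may therefore come from the counting, and does not show that its cell type was absent. Nor does a 0 of any other arm show this, since miR-142a-3p also had 0 counts while its partner miR-142a-5p was abundant. The lymphocyte miRNA miR-150 (2 arms) summed to 237 to 294 and 245 to 294 counts. The epithelial list (12 arms, both arms of miR-205 at 0) summed to 1021 to 1126 and 878 to 1026 counts. The part of the lymphocyte and epithelial signals in the miR-22 values was not tested, and in such bulk samples fewer cells of a type and less RNA per cell cannot be told apart. The miR-223 and miR-142a arms, listed as myeloid, together summed to 203363 or more counts in every library. Most of this was miR-142a-5p, a blood cell miRNA with a mean of 56672 CPM. The means of miR-223-3p and miR-223-5p were 2310 and 362 CPM.

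miR-22-3p had 927618, 970402 and 1003198 counts in control libraries 1 to 3 and 814208, 893549 and 900383 counts in LPS libraries 1 to 3. As shares of all miRNA counts these were 21.5%, 24.8% and 25.0% in the controls and 24.8%, 22.4% and 21.9% after LPS. The 2 groups overlapped, with the lowest share in control 1 and the highest in control 3. Exact 95% binomial (Clopper-Pearson) intervals of these single-library shares reached at most 0.0468 percentage points to either side. Such intervals cover counting error only, since reads carry no molecular identifiers. The spread between libraries was far wider than this.

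The first rank of miR-22-3p held for the mean but not for every library. miR-22-3p ranked first in 4 of 6 libraries and second in the other two, control 1 and LPS 3, where miR-21a-5p was ahead. miR-21a-5p, a miRNA known for repressing the translation inhibitor Pdcd4, took 24.6%, 18.5% and 20.4% of the control counts and 21.15%, 21.02% and 24.26% of the LPS counts. miR-22-3p reads per miR-21a-5p read ranged from 0.874 in control 1 to 1.34 in control 2, and from 0.904 to 1.17 in the LPS libraries. The 2 miRNAs are therefore neighbours in the order whose levels did not differ beyond their spread. Their summed share ranged from 43.3% in control 2 to 46.2% in LPS 3.

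**Figure D1:**
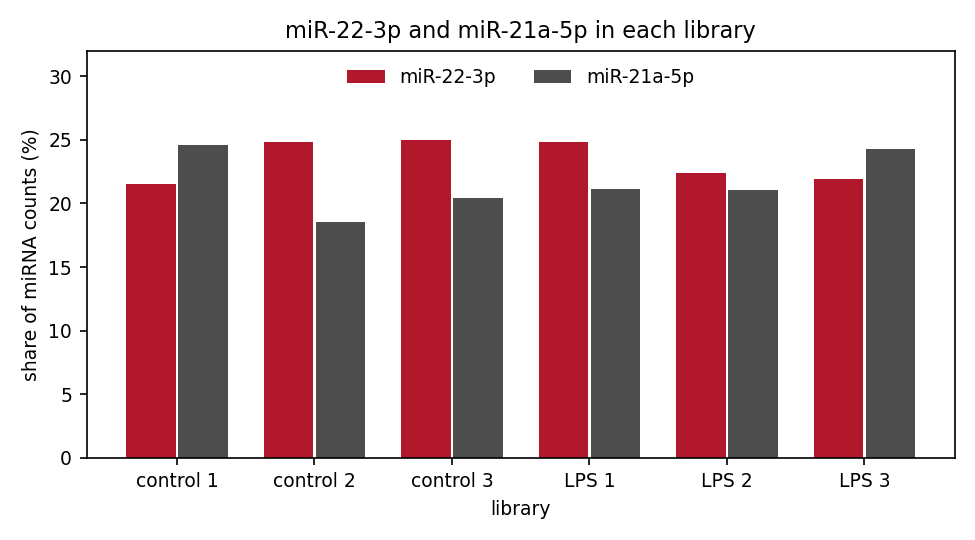
Share of all miRNA counts (percent, y axis) taken by miR-22-3p and by miR-21a-5p in each of the 6 libraries (x axis), 1 bar per miRNA and library. miR-21a-5p exceeds miR-22-3p in control 1 and LPS 3, and miR-22-3p is ahead in the other 4 libraries.

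The distance to the next miRNA was larger. miR-27b-3p, the third, reached 59545 to 81761 CPM over the 6 libraries, against 219045 to 257801 CPM for miR-22-3p, a ratio of mean levels of 3.45. The miRNAs ranked 3 to 5 (miR-27b-3p, miR-191-5p and miR-142a-5p) together held 19.2% ± 1.03 (SD, n = 3) of the counts without LPS and 18.2% ± 0.862 of those with it, less than miR-22-3p alone in every library. All miRNAs below the tenth rank together held 24.4% ± 0.351 and 24.6% ± 0.147, close to the share of miR-22-3p alone. These ranks and shares describe the deposited counts. miR-142a-3p, the partner of the fifth miRNA and commonly abundant in blood cells, had 0 counts in all 6 libraries. The ranks and shares in the cells may therefore differ from those in the tables.

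miR-22-5p, the scarce arm, was at rank 105 by mean level, with 679, 716 and 680 counts in the controls and 566, 728 and 712 counts in the LPS libraries. Its neighbours in the order were miR-301b-3p, miR-339-5p and let-7j above and miR-7043-3p, miR-450b-5p and miR-361-3p below. Mean levels of these 6 ran from 195.3 to 154.7 CPM, with miR-22-5p at 173.0 CPM. The range of each of the 6 over the libraries overlapped that of miR-22-5p (161.2 to 180.7 CPM), so these neighbours did not differ beyond their spread.

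The main comparison asked whether 3 h of LPS altered either arm. miR-22-3p did not pass the test. Its scaled level was 220228, 235539 and 243289 CPM in the controls and 257801, 219045 and 228513 CPM after LPS, or 233019 ± 11735 against 235119 ± 20205 CPM (SD, n = 3 per group). The LPS libraries held both the highest and the lowest value, and the groups overlapped. The log2 fold change, LPS over control, was 0.01 (SE 0.09, 95% interval -0.20 to 0.22, edgeR quasi-likelihood adjusted p = 0.998). On the linear scale the interval runs from 0.873 to 1.17 times the control level.

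miR-22-5p did not pass the test either, although its scaled values did not overlap. They were 161.2, 173.8 and 164.9 CPM in the controls and 179.2, 178.5 and 180.7 CPM after LPS (166.6 ± 6.47 against 179.5 ± 1.14 CPM, SD, n = 3 per group). The log2 fold change was 0.11 (SE 0.11, 95% interval -0.14 to 0.35, edgeR adjusted p = 0.943), from 0.909 to 1.28 times the control level. Scaled levels without overlap between the groups were seen in 57 of 357 tested miRNAs (16%). As CPM of the library totals without those factors, miR-22-5p was at 157.4, 183.0 and 169.6 in the controls and 172.5, 182.3 and 173.4 after LPS, and these groups overlapped. The separation of the groups thus depended on the TMM factors.

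**Figure D2:**
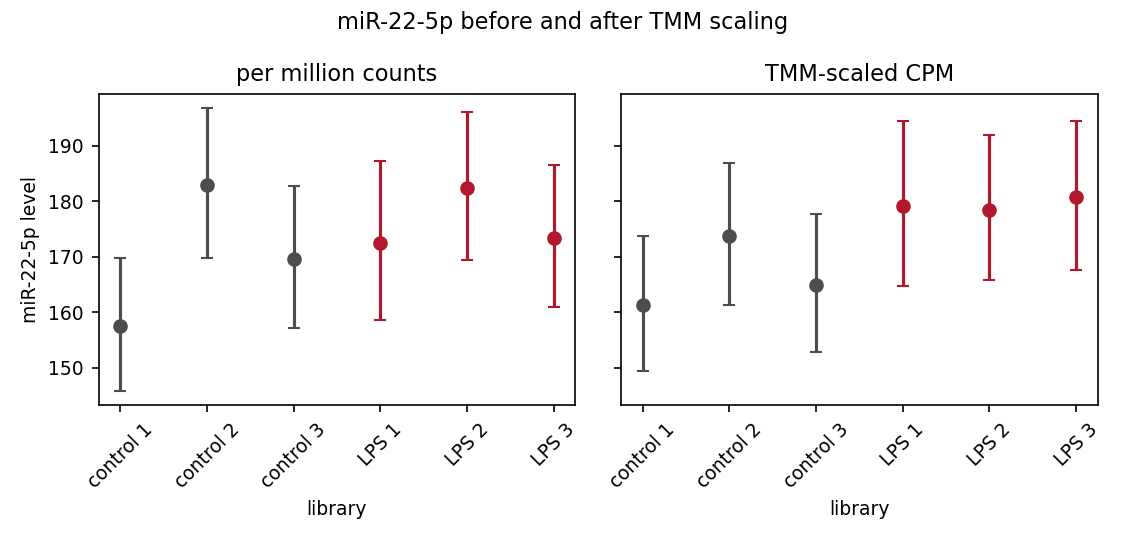
miR-22-5p in each library (x axis) as CPM of the library total (left) and as TMM-scaled CPM (right), with exact 95% binomial intervals of the counts as bars. The 3 LPS libraries (red) lie above the 3 controls (grey) after scaling, at 178.5 to 180.7 against 161.2 to 173.8 CPM, and overlap them before it.

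Across all miRNAs 18 of the 357 tested passed the threshold of an adjusted p below 0.05 (5.04%), 13 higher (3.64%) and 5 lower (1.4%) after LPS, and neither miR-22 arm was among them. The smallest absolute log2 fold change among the 18 was 0.52, for miR-222-3p, which lies outside the intervals of both arms. The absolute log2 fold change of miR-22-3p was larger than those of 20 of the 357 miRNAs, and the median over all of them was 0.14.

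**Figure D3:**
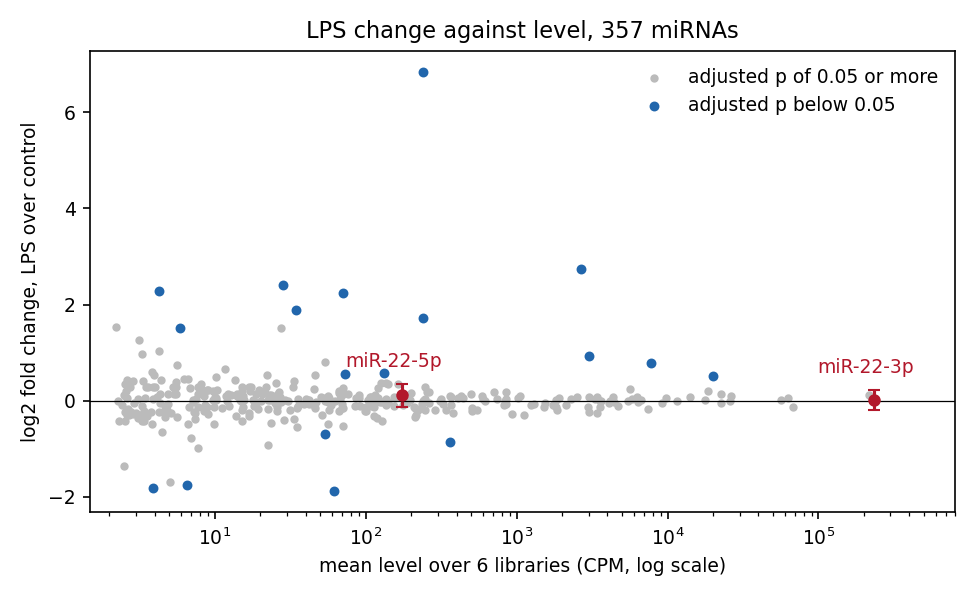
Log2 fold change of LPS over control (y axis) against the mean level in CPM (x axis, log scale) for the 357 tested miRNAs, with the 18 past the threshold in blue and the miR-22 arms in red with 95% intervals. The intervals of both arms span 0, with log2 fold changes of 0.01 for miR-22-3p and 0.11 for miR-22-5p.

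As a share of the pool, miR-22-3p took 23.8% ± 1.97 of the counts in controls (SD, n = 3) and 23.0% ± 1.55 in LPS libraries, a difference of -0.733 percentage points (two-sided exact permutation p = 0.9, adjusted 0.9). Leaving out 1 library moved this difference from -1.87 (without control 1) to -0.113 (without control 3). The share of miR-22-5p was 0.0170% ± 0.00128 against 0.0176% ± 0.000543 (two-sided exact permutation p = 0.5, adjusted 0.8). The log2 ratio of miR-22-3p to miR-21a-5p was 0.17 ± 0.32 in controls and 0.06 ± 0.19 in the LPS libraries (SD, n = 3 per group, two-sided exact permutation p = 0.6, adjusted 0.8). These are 3 of the 4 comparisons made in this way, adjusted by the Benjamini-Hochberg method over the 4, and with 3 libraries against 3 the smallest p the test can give is 0.1.

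The arm ratio of miR-22 was among the most uneven of the 100 hairpins with both arms tested. Its place is a description, since the hairpin was chosen by the count of its abundant arm. Hairpins with a scarce arm that did not pass the filter, such as miR-142a with no 3p counts, have no place in this order. There were 1366, 1355 and 1475 reads of miR-22-3p per read of miR-22-5p in the controls and 1439, 1227 and 1265 in the LPS libraries. The mean log2 ratio between the arms was the third largest of 100 hairpins with both arms tested, at 10.4, where the median was 3.77. In 45 of these hairpins the 3p arm was the abundant one, as in miR-22. Hairpins with ratios next to that of miR-22 were miR-191 (11.2) and miR-10a (10.6) above it and miR-23a (10.4), miR-186 (10.1) and miR-146a (9.78) below it. The scarce arms of these 5 hairpins had mean levels of 2.52 to 28.2 CPM, while miR-22-5p was at 173.0 CPM.

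The 5p arm made up 0.0731%, 0.0737% and 0.0677% of the miR-22 counts in the controls and 0.0695%, 0.0814% and 0.0790% after LPS. The lowest LPS library lay within the control range and the other two above it. Exact 95% binomial intervals ran from 0.0627% to 0.0793% over the control libraries and from 0.0639% to 0.0875% over the LPS libraries. The means were 0.0715% ± 0.00330 and 0.0766% ± 0.00632 (SD, n = 3 per group, two-sided exact permutation p = 0.3, adjusted 0.8). In the limma fit over the 100 hairpins, the 5p arm relative to the 3p arm differed by 0.10 on the log2 scale, LPS minus control (SE 0.17, 95% interval -0.26 to 0.45, limma adjusted p = 0.844). In that fit 12 of 100 hairpins (12%) passed, among them miR-146a, whose scarce arm gained 2.21 on its abundant arm (SE 0.27).

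**Figure D4:**
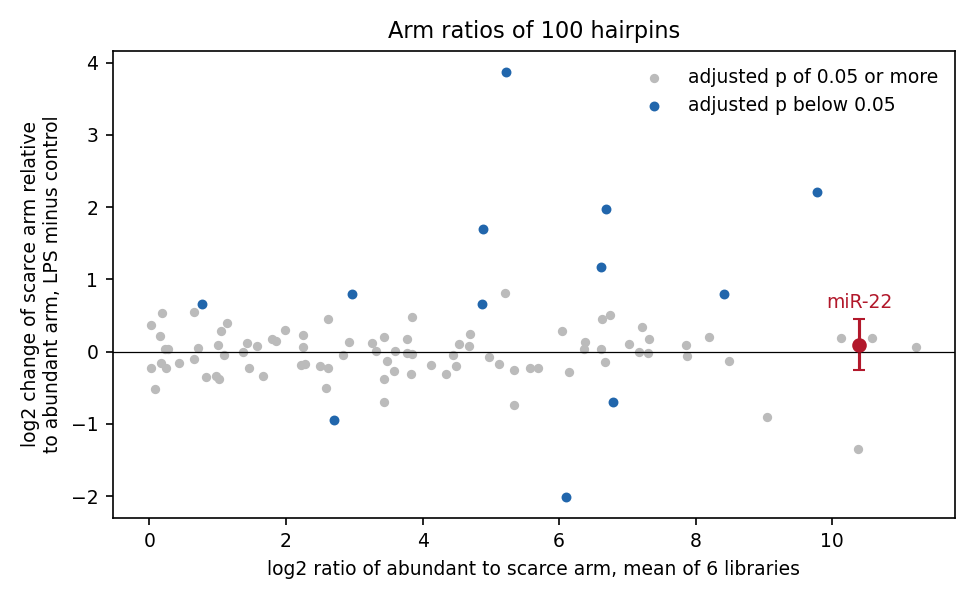
Change in the ratio of the scarce to the abundant arm after LPS (y axis, log2, LPS minus control) against the log2 ratio of the abundant to the scarce arm (x axis, mean of 6 libraries) for 100 hairpins, with the 12 past the threshold in blue and miR-22 in red with its 95% interval. miR-22 lies near the right edge, at 10.4, with a change of 0.10.

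The spread between libraries of a group was wide against counting error for miR-22-3p and narrow for miR-22-5p. The narrow spread of the 5p arm depended on the scaling. For miR-22-3p the coefficient of variation of the scaled level was 5.04% in controls and 8.59% after LPS, where counting error alone would give 0.102% and 0.107%. Its SD of log2 CPM within groups was 0.10, the 17th lowest among the 56 miRNAs of at least 1000 CPM, whose median was 0.15. For miR-21a-5p it was 0.21. For miR-22-5p the coefficients were 3.88% and 0.635%, against 3.80% and 3.87% from counting error. Its SD of 0.04 was the lowest among the 81 miRNAs of 100 to 1000 CPM, where the median was 0.16 and the next lowest 0.05. The chi-square per degree of freedom against counting error was 1.04 in controls and 0.0288 after LPS for miR-22-5p, and the medians over those 81 miRNAs were 9.97 and 8.79. Counting error is present in every library, so a spread below it is not read as steadiness of miR-22-5p in the cells. Without the TMM factors, the coefficients of variation were 8.27% and 6.74% for miR-22-3p and 7.52% and 3.08% for miR-22-5p, in controls and after LPS. The SD of miR-22-5p was then 0.08, the 9th lowest of the 81, and that of miR-22-3p was 0.11, the 16th lowest of the 56. For miR-22-3p the group with the larger coefficient was LPS with the factors and control without them.

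**Figure D5:**
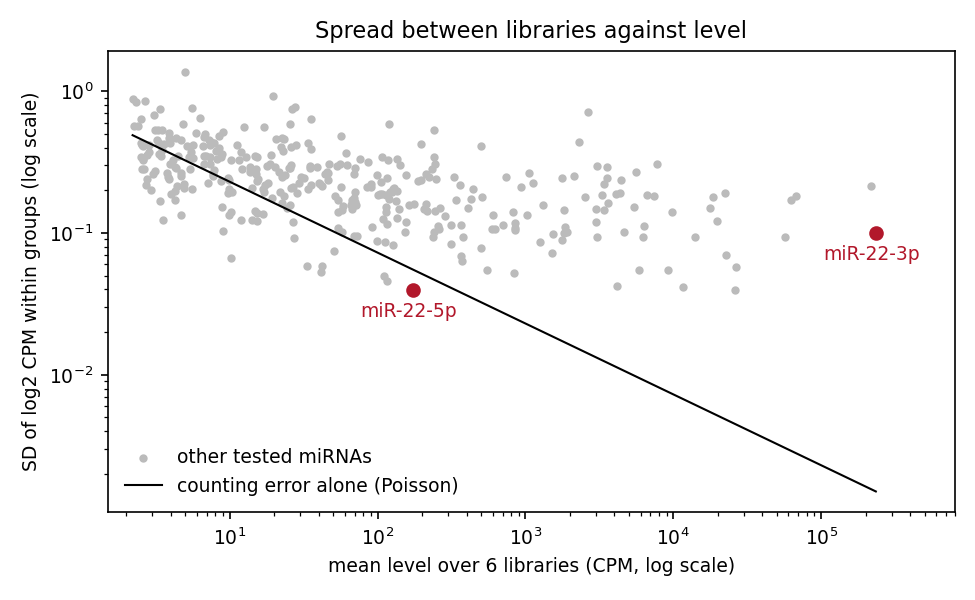
SD of log2 CPM within groups (y axis, log scale) against mean level in CPM (x axis, log scale) for the 357 tested miRNAs, with the spread that counting error alone gives as a line. miR-22-3p (SD 0.10) lies far above the line and miR-22-5p (SD 0.04) below it. The levels plotted are TMM-scaled, and without that scaling the SD of miR-22-5p was 0.08.

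The pattern of each arm over the 6 libraries was compared with that of 136 other miRNAs of at least 100 CPM, as the root mean square difference of log2 CPM after each miRNA was centred on its own mean. The smallest difference from miR-22-3p was that of miR-142a-5p (0.04), followed by miR-15a-5p (0.04) and miR-425-5p (0.05), where the median was 0.18. miR-142a-5p, a blood cell miRNA at rank 5, had a log2 fold change of 0.02 (SE 0.10). For miR-22-5p the nearest were miR-362-3p (0.04), miR-92a-3p (0.05) and miR-221-3p (0.06), with a median of 0.16. In the order of difference from miR-22-3p, from the smallest, miR-22-5p was 23rd (0.09) and miR-21a-5p was 99th (0.22). The values were centred but not brought to equal spread, so a small difference can also arise where both miRNAs vary little. It does not by itself show a shared pattern. Since all values also share the same libraries and scaling factors, these differences are a description.

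miR-22 was last set beside other miRNAs known from myeloid cells, a list that includes some known for responding to LPS (miR-155, miR-146a and miR-21a). Of 15 tested arms 4 rose (miR-21a-3p, miR-146a-3p and both arms of miR-155), 1 fell (miR-223-5p) and 10, both miR-22 arms among them, did not pass. Over all 357 tested miRNAs 5.04% passed, 3.64% higher and 1.4% lower. The median log2 fold change was 0.04 in the list and 0.01 over all tested miRNAs. The abundant arms of other hairpins in the list that did not pass had log2 fold changes on either side of that of miR-22-3p. miR-146a-5p was at 0.21 (SE 0.13), miR-21a-5p at 0.11 (SE 0.14), miR-223-3p at 0.04 (SE 0.25) and miR-142a-5p at 0.02 (SE 0.10). Below miR-22-3p were miR-342-3p at -0.17 (SE 0.13) and miR-322-5p at -0.05 (SE 0.11). miR-22-3p had the smallest SE of the 15 arms, 0.09.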

How the data were processed

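Small RNA sequencing counts of 3 control and 3 LPS libraries were used; 2 samples of a chromosome conformation assay were not analysed here. The values are whole-number counts per mature miRNA, deposited by the authors without a normalization that the values show. Per the submitters' processing notes, reads were handled with Novoalign and with SAMtools 0.1.19 on mm10 (GRCm38.p1). Not given in the sources used here: the counting tool and the miRNA annotation.

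The fit ran over all miRNAs with edgeR 4.0.16 in R 4.3.3 (quasi-likelihood F test, TMM factors, filterByExpr with a minimum count of 10, which left 357 miRNAs), with Benjamini-Hochberg adjustment and a threshold of 0.05. SEs come from the fold change and its F statistic. Arm differences were fitted with limma 3.58.1 on log-CPM (prior count 2, variance trend) over 100 hairpins. Both were run on simulated counts in which the changed miRNAs had log2 changes far larger than those of the miR-22 arms. That run therefore does not cover small changes. Shares were compared by exact permutation. Sequences and positions are RefSeq's (GRCm38.p6), folded with ViennaRNA 2.7.2. Named miRNAs are the arms, the 10 most abundant, 3 neighbours on either side, the myeloid list, miRNAs sharing seed bases, and the 3 most alike of at least 100 CPM; miR-146a-3p's shared stretch, miR-3971 and miR-142a-3p were chosen after values or sequences were seen. The members and lists were chosen with earlier results of these data known. Alternatives were other scalings, filters, DESeq2 1.42.0, limma-voom, a replicate block and leaving out each library.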

Additional observations from a re-analysis of the deposited data

How the results depend on the processing

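Neither miR-22 arm passed the test in any of 15 alternatives, with adjusted p of 0.818 to 0.998 for miR-22-3p and 0.749 to 0.998 for miR-22-5p. The sign of the miR-22-3p log2 fold change turned with upper-quartile factors (-0.0489), with library totals only (-0.0452) and without control replicate 1 (-0.0715) or LPS replicate 1 (-0.0933), and leaving out each library gave -0.0933 to 0.0811. miR-22-5p stayed above 0 in all 15, at 0.04 to 0.15. Over these alternatives the 95% intervals reached from -0.29 to 0.37 for miR-22-3p and from -0.25 to 0.45 for miR-22-5p. The arm difference was 0.05 to 0.17 in 10 alternatives and passed in none. The difference in share of miR-22-3p was -1.87 to -0.113 percentage points when 1 library was left out. That of miR-22-5p turned to -1.9e-05 percentage points without control replicate 1, within a range of up to 0.00126 over the libraries left out. The number of changed miRNAs was 11 to 26 over the 15 alternatives, with 26 when no filter was used. It was 11 to 18 when 1 library was left out, with 11 without LPS replicate 3. With library totals only, an alternative chosen after seeing the data, the SD of log2 CPM within groups was 0.0828 for miR-22-5p and 0.11 for miR-22-3p, against 0.0397 and 0.10 with TMM factors. Without the variance trend 7 hairpins had unequal arm change. With a replicate block, the log2 fold changes were 0.01 (miR-22-3p) and 0.11 (miR-22-5p), the arm difference was 0.10, and 17 miRNAs and 11 hairpins passed. The numbers of the labels were not treated as pairs, since the labels do not say that they pair libraries. Same-numbered libraries deviated together with correlations of 0.02, 0.14 and -0.04 across miRNAs, which cannot decide pairing with so few libraries per group. The cause of these shifts was not tested. The SEs of the log2 fold changes were 0.09 for miR-22-3p and 0.11 for miR-22-5p, and the latter had 566 to 728 counts per library. The quasi-likelihood fit draws part of the variance from all tested miRNAs, so these SEs do not measure the precision of each arm by itself.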
